A study of Homo sapiens with 12 samples.

Results

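The 43 genes described here encode receptor tyrosine kinases outside the EGFR family. They were taken by symbol from a list of 43, and all were found among the 38434 named genes of the count tables of both cell lines. The list holds 4 FGF receptors, 5 type III receptors (KIT, PDGFRA, PDGFRB, CSF1R and FLT3), 3 VEGF receptors, 7 EphA and 5 EphB receptors, pairs from the MET, TAM, discoidin domain, neurotrophin, ROR, TIE and ALK families, and RYK, PTK7, ROS1, MUSK and INSRR. No cut on a measured value was used to choose them, but the list was made with earlier results of these data known.

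Poly(A) RNA was sequenced from LK-2 and RERF-LC-AI cells, established human lines labelled as lung squamous cell carcinoma, in 4 groups of 3 libraries. LK2-ctrl and LC-AI-ctrl cells carried a lentiviral ZsGreen, a green fluorescent protein, and LK2-maspin and LC-AI-maspin cells carried maspin (SERPINB5, a serpin with tumor suppressor activity) joined to ZsGreen through a P2A peptide. All 4 stable lines had been selected with blasticidin and were pools of surviving clones, with LK-2 cells kept in RPMI1640 and RERF-LC-AI cells in Eagle's minimum essential medium. The comparisons address how these receptors differed between maspin and control cells of each line, whether the lines differed in this, and how far the receptors differed between the control cells. Within a line, maspin cannot be told apart from any other difference between the maspin pool and the control pool. A change or effect with maspin below means the difference between these pools.

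Receptor tyrosine kinases are single-pass membrane proteins that pair when an extracellular ligand binds, phosphorylate each other on tyrosine and so recruit adaptors that feed the RAS-MAPK and PI3K-AKT routes. Members differ in their ligands, which range from growth factors to collagen, Wnt proteins and ephrins held on neighbouring cells. FGFR1, MET, ALK and ROS1 are well-known oncogenes or drug targets in lung cancer, whereas PDGFRB, KIT and CSF1R are best known from stromal, mast and myeloid cells.

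Over the named genes LK-2 libraries held 39802246 to 54941357 counts each, and RERF-LC-AI libraries 50143577 to 65454432. SERPINB5 was 1.83 ± 0.113 CPM (counts scaled to equal library size; SD, n = 3) in LK2-ctrl and 46.4 ± 1.46 in LK2-maspin cells, and 0.220 ± 0.0688 in LC-AI-ctrl and 512 ± 40.3 in LC-AI-maspin cells. Levels below are CPM on 1 TMM scale for all 12 libraries, listed in the order of replicates 1, 2 and 3. Nothing states that the libraries of a group came from separate cultures, so that the tests measure only the spread between these libraries. The epithelial markers EPCAM, CDH1, KRT8, KRT18 and KRT19 were all over 1 CPM on average in all 4 groups, but the lines differed widely in them. EPCAM averaged 535 CPM in LK2-ctrl and 5.41 in LC-AI-ctrl cells, CDH1 115 and 2.96, and KRT19 173 and 125. KRT8 (606 and 1448 CPM) and KRT18 (306 and 601 CPM) were higher in LC-AI-ctrl cells. Of 6 squamous markers only DSG3 reached 1 CPM in RERF-LC-AI cells, where KRT5, KRT6A, KRT14, TP63 and SOX2 did not, while 4 reached it in LK2-ctrl cells.

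In LC-AI-maspin cells KIT, the receptor for stem cell factor, and PDGFRB, the receptor for PDGF-BB, fell 3.30-fold and 3.01-fold, FGFR3 fell 1.60-fold, and DDR2, a receptor for fibrillar collagen, rose 2.27-fold. RYK and FGFR4 rose less, and EPHB2, PTK7, TYRO3, ROR1 and LTK fell less. In LK-2 cells no member passed the test without a replicate block, and 6 did with one. Thus 11 of 42 members tested were called in RERF-LC-AI cells (26.2%), against 10.5% of all genes tested there, with 3 higher against a background of 4.01% and 8 lower against 6.53%. In LK-2 cells 0 of 41 were called in edgeR's quasi-likelihood test, against 0.533% of all genes. At an unadjusted p under 0.05 there were 6 members in LK-2 cells, and edgeR's likelihood ratio test and DESeq2 also called 0. The share of all genes under that unadjusted p is not given here, so the 6 cannot be read as many or few. Libraries of the same replicate number deviated together among well-expressed genes, and with that number as a block 6 of the 41 were called in LK-2 cells, against 4.53% of all genes. Of these, FGFR3, EPHA1 and EPHB3 were higher and EPHA4, EPHA5 and PTK7 lower in LK2-maspin cells. In RERF-LC-AI cells the block added EPHA2, EPHB4 and FLT1, which gave 14 of 42 called, against 16.2% of all genes.

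Over the members tested in LK-2 cells the median log2 fold change was 0.04, beside -0.00 over all genes, and in RERF-LC-AI cells it was -0.05, beside 0.01. FLT3 was under the filter on low counts in RERF-LC-AI cells, and TEK and INSRR were under it in LK-2 cells. Groups that did not overlap in CPM were seen for 16 of the 42 members in RERF-LC-AI cells, against 25% of all genes tested, and for 6 of the 41 in LK-2 cells, against 11.6%.

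**Figure D1:**
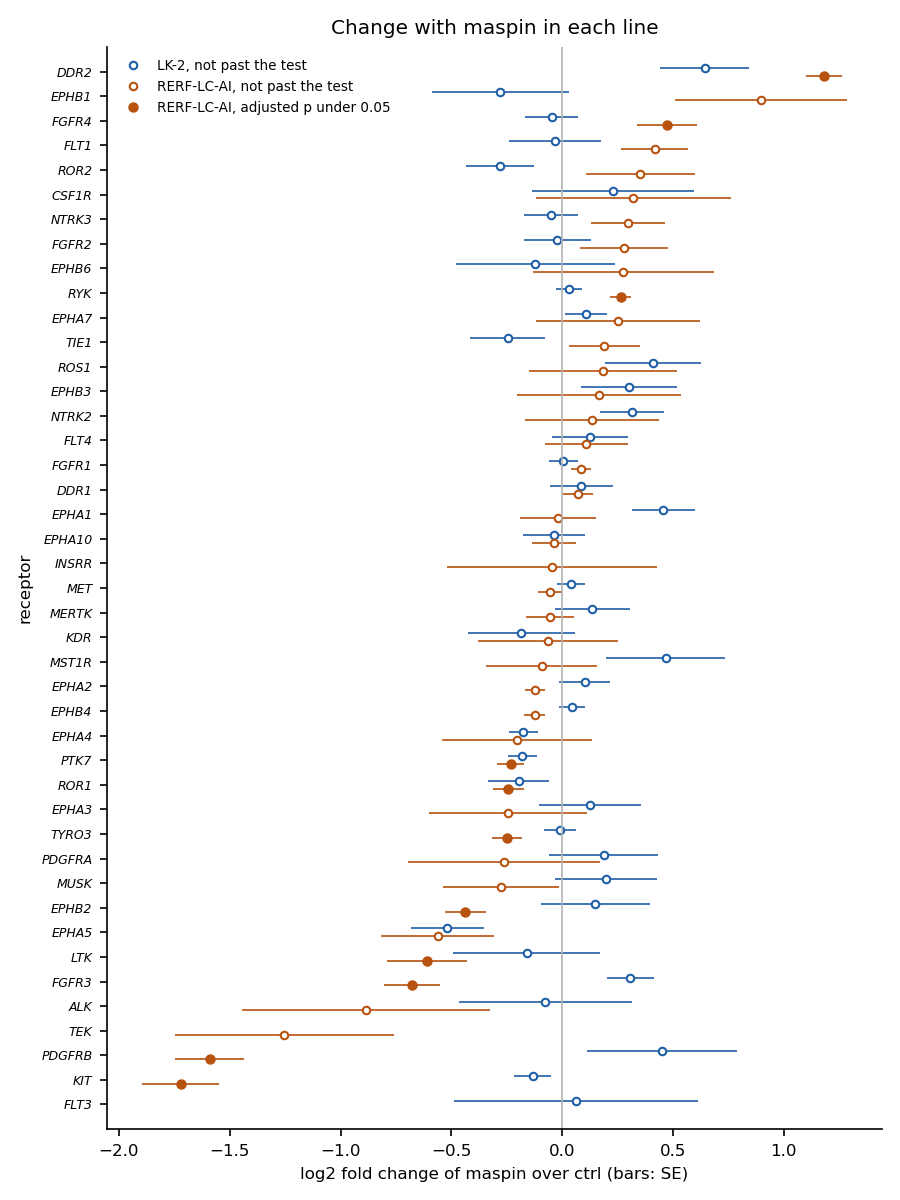
Log2 fold change with maspin (horizontal axis) for each receptor (vertical axis, ordered by the RERF-LC-AI value), with LK-2 in blue and RERF-LC-AI in orange. Bars are the SE, and filled points have an adjusted p under 0.05. KIT (-1.72) and PDGFRB (-1.59) lie far to the left and DDR2 (1.18) to the right in RERF-LC-AI cells, and no LK-2 point is filled in this fit, which has no replicate block. Members under the filter in a line have no point there.

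Among the type III receptors KIT is the receptor for stem cell factor. The gene lies on the plus strand of chromosome 4, 54657267 to 54740783 (GRCh38), with 21 exons in its canonical transcript. Its level was 5.12, 9.88 and 8.41 CPM in LC-AI-ctrl and 2.23, 2.56 and 2.29 CPM in LC-AI-maspin libraries, from 246 to 514 and from 108 to 152 counts. Each LC-AI-maspin library lay below each control, and the controls spread more widely than the maspin libraries, with LC-AI-ctrl replicate 1 the lowest of the controls. The change was -1.72 on the log2 scale (SE 0.17, adjusted p = 3.24e-08), and it lay between -1.95 and -1.51 when each library was left out in turn. In LK-2 cells KIT was 22.0, 22.4 and 19.4 CPM in control and 18.1, 19.6 and 20.4 CPM in maspin libraries. These groups overlapped, and the change was -0.13 on the log2 scale (SE 0.08, adjusted p = 0.931). The change differed between the lines by 1.59 on the log2 scale (SE 0.23, adjusted p = 6.24e-04, interaction term).

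PDGFRB lies on the minus strand of chromosome 5, 150113839 to 150155872, with 23 exons. It was 8.42, 6.42 and 10.8 CPM in LC-AI-ctrl and 3.23, 2.52 and 2.76 CPM in LC-AI-maspin libraries. The groups were apart, and the change was -1.59 on the log2 scale (SE 0.15, adjusted p = 1.86e-08). In LK-2 cells the level was low in both groups, at 1.07, 0.503 and 0.465 CPM in control and 1.09, 0.829 and 0.834 CPM in maspin libraries. Here the groups overlapped, with LK2-ctrl replicate 1 within the maspin range, and the change was 0.45 on the log2 scale (SE 0.34, adjusted p = 0.977). The interaction was 2.04 (SE 0.37, adjusted p = 0.00452). Over the members, 3 of 43 were called in this test of the difference between the lines, against 1.76% of all genes tested. With the replicate block FGFR4, RYK and EPHA2 were added, which gave 6 of 43, against 8.08% of all genes.

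The other type III receptors were low in RERF-LC-AI cells. PDGFRA, which binds several PDGF dimers, was 0.333, 0.269 and 0.668 CPM in LC-AI-ctrl and 0.393, 0.404 and 0.258 CPM in LC-AI-maspin libraries, with overlapping groups. CSF1R, the receptor for CSF1 and IL34, was 0.249 to 0.345 CPM and 0.228 to 0.533 CPM. FLT3, a receptor of blood progenitors, had 0 to 8 counts in each library of this line. In LK-2 cells PDGFRA was 4.72 to 6.17 CPM in control and 3.60 to 8.20 CPM in maspin libraries, so that its groups overlapped there too.

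FGFR3, an FGF receptor, lies on the plus strand of chromosome 4, 1793293 to 1808872, with 18 exons. It was 6.97, 10.5 and 8.43 CPM in LC-AI-ctrl and 5.79, 5.08 and 5.31 CPM in LC-AI-maspin libraries. The lowest control lay above the highest maspin library, and the change was -0.68 on the log2 scale (SE 0.13, adjusted p = 3.81e-04). In LK-2 cells FGFR3 was 16.2, 17.1 and 18.4 CPM in control and 18.3, 23.6 and 22.1 CPM in maspin libraries. These groups met at LK2-ctrl replicate 3 and LK2-maspin replicate 1, and the change of 0.31 on the log2 scale (SE 0.10) had an adjusted p of 0.498, or 0.00243 with the replicate block. The difference between the lines was 0.99 (SE 0.18, adjusted p = 0.00510).

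FGFR4 (chromosome 5, plus strand, 177086905 to 177098144), a receptor for FGF19, moved the other way in RERF-LC-AI cells. It was 3.70, 3.58 and 3.38 CPM in LC-AI-ctrl and 4.61, 5.54 and 4.62 CPM in LC-AI-maspin libraries, with a change of 0.47 on the log2 scale (SE 0.14, adjusted p = 0.0209). All maspin libraries were above all controls, but the call was lost without LC-AI-ctrl replicate 3 (adjusted p = 0.0974) and without LC-AI-maspin replicate 2 (0.131), and with all 12 libraries in 1 fit (0.0662). In LK-2 cells FGFR4 was 45.5, 53.9 and 53.9 CPM in control and 39.6, 56.8 and 52.2 CPM in maspin libraries, with overlapping groups. The effects differed by -0.52 on the log2 scale (LK-2 minus RERF-LC-AI, adjusted p = 0.175), which was called with the replicate block (0.00217). FGFR1 did not pass the test in either line. It was 191, 187 and 183 CPM in LC-AI-ctrl and 196, 202 and 198 CPM in LC-AI-maspin libraries (log2 fold change 0.09, SE 0.05, adjusted p = 0.283). FGFR2 did not pass it either, at 1.35 to 1.94 CPM in LC-AI-ctrl and 1.77 to 2.48 CPM in LC-AI-maspin libraries.

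DDR2 lies on the plus strand of chromosome 1, 162631373 to 162787405, with 18 exons. It was 10.4, 9.13 and 11.1 CPM in LC-AI-ctrl and 23.0, 22.7 and 23.5 CPM in LC-AI-maspin libraries. The maspin libraries lay close together and well above the controls, and the change was 1.18 on the log2 scale (SE 0.08, adjusted p = 1.88e-11). In LK-2 cells DDR2 was 1.38, 1.08 and 1.17 CPM in control and 1.73, 2.18 and 1.77 CPM in maspin libraries. The groups did not overlap there, yet the change of 0.64 on the log2 scale (SE 0.20) had an adjusted p of 0.420. The effects differed by -0.54 (LK-2 minus RERF-LC-AI, SE 0.19, adjusted p = 0.184), so that a difference between the lines was not detected for DDR2. DDR1, the other collagen receptor, was 22.9 to 25.4 CPM in LC-AI-ctrl and 24.5 to 25.8 CPM in LC-AI-maspin libraries, and did not pass the test (log2 fold change 0.07, SE 0.07, adjusted p = 0.623).

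**Figure D2:**
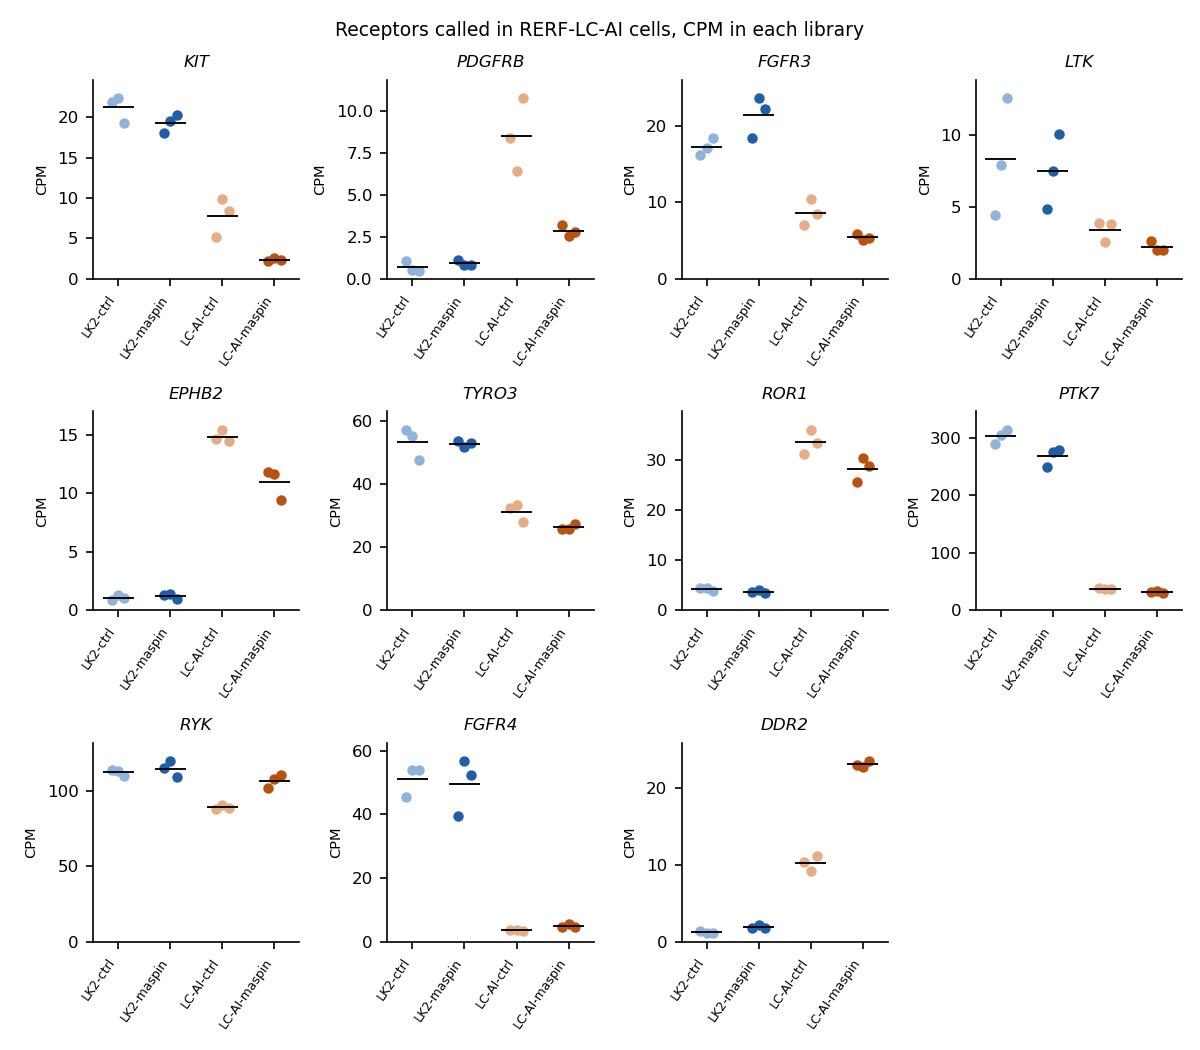
CPM (vertical axis, from 0) in each of the 12 libraries for the 11 receptors called in RERF-LC-AI cells, 1 panel per gene ordered by log2 fold change in that line. Points are libraries, horizontal lines are group means, blue is LK-2 and orange RERF-LC-AI. For KIT the LC-AI-maspin libraries lie at 2.23 to 2.56 CPM under controls at 5.12 to 9.88, for DDR2 at 22.7 to 23.5 over controls at 9.13 to 11.1, and for LTK the 2 RERF-LC-AI groups overlap.

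Of the Wnt-binding or Wnt-linked receptors, RYK, whose kinase domain is inactive, rose in LC-AI-maspin cells, and PTK7, a pseudokinase of planar cell polarity, and ROR1, a receptor for WNT5A, fell. RYK (chromosome 3, minus strand, 134065303 to 134250859) was 87.5, 90.5 and 88.6 CPM in LC-AI-ctrl and 102, 108 and 110 CPM in LC-AI-maspin libraries. The groups were apart, with a small change of 0.26 on the log2 scale (SE 0.05, adjusted p = 3.09e-04). In LK-2 cells RYK was 113, 113 and 110 CPM in control and 115, 119 and 109 CPM in maspin libraries, which overlapped (log2 fold change 0.03, SE 0.06). The effects differed by -0.23 (LK-2 minus RERF-LC-AI, adjusted p = 0.196, or 0.0124 with the replicate block).

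PTK7 (chromosome 6, plus strand, 43076307 to 43161719) was 38.9, 36.7 and 36.2 CPM in LC-AI-ctrl and 31.5, 33.2 and 30.4 CPM in LC-AI-maspin libraries, a change of -0.23 on the log2 scale (SE 0.06, adjusted p = 0.00987). Its groups were apart, and the call was lost without LC-AI-maspin replicate 3 (adjusted p = 0.0947). In LK-2 cells PTK7 was 290.5, 306 and 315 CPM in control and 249, 276 and 280 CPM in maspin libraries, which were also apart. The change there was -0.18 on the log2 scale (SE 0.07, adjusted p = 0.588, or 1.63e-04 with the replicate block), and the effects in the lines differed by 0.05 (SE 0.09, adjusted p = 0.886).

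ROR1 (chromosome 1, plus strand, 63774017 to 64181498) was 31.1, 36.0 and 33.3 CPM in LC-AI-ctrl and 25.6, 30.3 and 28.8 CPM in LC-AI-maspin libraries. The groups were apart by less than 1 CPM, and the change of -0.24 on the log2 scale (SE 0.07, adjusted p = 0.0199) lost its call without LC-AI-ctrl replicate 2 or 3 or LC-AI-maspin replicate 1 or 3 (adjusted p up to 0.159), and with all 12 libraries in 1 fit (0.161). In LK-2 cells ROR1 was 4.44, 4.40 and 3.78 CPM in control and 3.60, 4.03 and 3.39 CPM in maspin libraries, which overlapped. ROR2 did not pass the test in either line.

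No EphA receptor was called in either line at an adjusted p under 0.05 in edgeR's quasi-likelihood test without a replicate block. With the block EPHA2 was called in RERF-LC-AI cells and EPHA1, EPHA4 and EPHA5 in LK-2 cells. EPHA2, which binds A-type ephrins, was 292, 287 and 282 CPM in LC-AI-ctrl and 268, 261 and 261 CPM in LC-AI-maspin libraries. The groups were apart, but the change of -0.12 on the log2 scale (SE 0.04) had an adjusted p of 0.0836, and DESeq2 (0.0160) and the replicate block (0.00429) called it. In LK-2 cells EPHA2 was 17.6, 19.98 and 21.4 CPM in control and 17.8, 24.1 and 21.5 CPM in maspin libraries, which overlapped. The effects in the lines differed by 0.22 (adjusted p = 0.473, or 0.0385 with the replicate block). EPHA5, a receptor best known from axon guidance, was 1.39, 1.04 and 1.08 CPM in LC-AI-ctrl and 0.683, 0.757 and 0.920 CPM in LC-AI-maspin libraries (log2 fold change -0.56, SE 0.26, adjusted p = 0.194). In LK-2 cells EPHA5 was 3.71, 3.59 and 4.49 CPM in control and 2.40, 3.13 and 2.72 CPM in maspin libraries (log2 fold change -0.52, SE 0.16, adjusted p = 0.431, or 0.0332 with the replicate block). EPHA5 thus had lower values in all maspin than in all control libraries of both lines.

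EPHA1 had the smallest adjusted p of all members in LK-2 cells, 0.411, with 5.53, 6.82 and 7.38 CPM in control and 8.68, 8.25 and 10.1 CPM in maspin libraries (log2 fold change 0.46, SE 0.14). These groups were apart, and the adjusted p was 0.00196 with the replicate block. EPHA4 was 157, 169 and 155 CPM in LK2-ctrl and 131, 145 and 150 CPM in LK2-maspin libraries, also apart (log2 fold change -0.17, SE 0.07, adjusted p = 0.613, or 0.00126 with the replicate block). In RERF-LC-AI cells EPHA4 was 1.39, 0.923 and 0.431 CPM in control and 1.2, 0.623 and 0.597 CPM in maspin libraries, which overlapped.

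Of the EphB receptors, which bind the transmembrane B-type ephrins, EPHB2 was called. The gene lies on the plus strand of chromosome 1, 22710839 to 22921500. EPHB2 was 14.6, 15.5 and 14.4 CPM in LC-AI-ctrl and 11.9, 11.7 and 9.39 CPM in LC-AI-maspin libraries. The groups were apart, and the change was -0.44 on the log2 scale (SE 0.09, adjusted p = 0.00150). The call was lost with all 12 libraries in 1 fit (adjusted p = 0.0606). In LK-2 cells EPHB2 was 0.889, 1.27 and 1.07 CPM in control and 1.26, 1.40 and 0.933 CPM in maspin libraries, which overlapped. EPHB4, the receptor for ephrin-B2, was 93.5, 87.4 and 85.8 CPM in LC-AI-ctrl and 83.3, 81.0 and 80.1 CPM in LC-AI-maspin libraries, apart but not called (log2 fold change -0.12, SE 0.05, adjusted p = 0.12), except with the replicate block (0.0202). In LK-2 cells EPHB4 was 157.9, 153.0 and 143.3 CPM in control and 150.9, 164.3 and 153.0 CPM in maspin libraries, which overlapped.

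TYRO3, a TAM receptor for GAS6 and protein S, and LTK, a receptor for ALKAL proteins, lie 43.8 kb apart on chromosome 15, on opposite strands. TYRO3 was 32.5, 33.5 and 28.1 CPM in LC-AI-ctrl and 25.8, 25.8 and 27.4 CPM in LC-AI-maspin libraries. The groups were apart by less than 1 CPM, and the change of -0.25 on the log2 scale (SE 0.07, adjusted p = 0.0154) lost its call without either of LC-AI-ctrl replicates 1 and 2 or LC-AI-maspin replicates 1 and 2 (adjusted p up to 0.0880), with library size only (0.0524) and with all 12 libraries in 1 fit (0.0942). In LK-2 cells TYRO3 was 57.4, 55.4 and 47.6 CPM in control and 53.8, 51.7 and 53.2 CPM in maspin libraries, which overlapped.

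LTK was 3.87, 2.52 and 3.77 CPM in LC-AI-ctrl and 2.65, 2.02 and 2.002 CPM in LC-AI-maspin libraries. The groups overlapped, and the change of -0.61 on the log2 scale (SE 0.18, adjusted p = 0.0248) lost its call without any of LC-AI-ctrl replicates 1 and 3 and LC-AI-maspin replicates 2 and 3 (adjusted p up to 0.135), with library size only (0.0624) and with all 12 libraries in 1 fit (0.391). In LK-2 cells LTK varied widely between libraries of a group, at 4.40, 7.94 and 12.6 CPM in control and 4.88, 7.49 and 10.0 CPM in maspin libraries, which overlapped widely.

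The VEGF, MET, neurotrophin and TIE receptors, MERTK, ALK, ROS1, MUSK and INSRR had no call with maspin in either line without a replicate block. MET, the HGF receptor, was 193, 188 and 173 CPM in LC-AI-ctrl and 182, 186 and 165 CPM in LC-AI-maspin libraries, which overlapped (log2 fold change -0.05, SE 0.05, adjusted p = 0.627). In LK-2 cells MET was 82.2, 84.4 and 72.1 CPM in control and 82.0, 82.0 and 81.0 CPM in maspin libraries, which overlapped. FLT1, a VEGF receptor, was 3.56, 2.92 and 3.75 CPM in LC-AI-ctrl and 5.42, 4.41 and 3.86 CPM in LC-AI-maspin libraries (log2 fold change 0.42, SE 0.15, adjusted p = 0.0790). Its groups were apart, and it was called without LC-AI-maspin replicate 3 (0.0472) and with the replicate block (0.0306). TEK, the angiopoietin receptor, had 16 to 24 counts in LC-AI-ctrl and 6 to 14 in LC-AI-maspin libraries (log2 fold change -1.25, SE 0.49, adjusted p = 0.116), so that depth limits what can be said of it.

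Among the remaining EphA receptors EPHA7 ran over 11.0 to 11.7 CPM in LK2-ctrl, 11.6 to 12.7 in LK2-maspin, 0.345 to 0.615 in LC-AI-ctrl and 0.404 to 0.759 in LC-AI-maspin libraries. EPHA3 ran over 0.948 to 1.15 CPM in LK2-ctrl, 0.968 to 1.27 in LK2-maspin, 0.437 to 0.596 in LC-AI-ctrl and 0.353 to 0.517 in LC-AI-maspin libraries. EPHA10, which lacks kinase activity, ran over 3.62 to 4.05 CPM in LK2-ctrl, 3.43 to 4.13 in LK2-maspin, 8.59 to 9.76 in LC-AI-ctrl and 8.39 to 9.29 in LC-AI-maspin libraries. For none of these did the maspin groups separate from their controls, and EPHA7 stayed under 1 CPM in all RERF-LC-AI libraries.

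EPHB3, an EphB receptor, was 5.69 to 10.3 CPM in LK2-ctrl, 7.85 to 12.6 in LK2-maspin, 0.457 to 0.560 in LC-AI-ctrl and 0.303 to 0.775 in LC-AI-maspin libraries. Its groups overlapped in LK-2 cells, where the change of 0.30 on the log2 scale (SE 0.22) had an adjusted p of 0.969, or 0.0414 with the replicate block. EPHB1 was 0.553 to 0.910 CPM in LK2-ctrl, 0.496 to 0.664 in LK2-maspin, 0.237 to 0.461 in LC-AI-ctrl and 0.387 to 0.869 in LC-AI-maspin libraries. EPHB6, a kinase-inactive member, was 0.382 to 0.445 CPM in LK2-ctrl, 0.346 to 0.397 in LK2-maspin, 0.192 to 0.894 in LC-AI-ctrl and 0.414 to 0.823 in LC-AI-maspin libraries. Both EPHB1 and EPHB6 stayed under 1 CPM in every library, so that depth limits what can be said of them.

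Of the VEGF receptors, KDR, the main signaling receptor for VEGFA in endothelium, was 1.23 to 2.51 CPM in LK2-ctrl, 1.51 to 1.80 in LK2-maspin, 0.560 to 0.654 in LC-AI-ctrl and 0.517 to 0.621 in LC-AI-maspin libraries. FLT4, the receptor for VEGFC and VEGFD, was 1.76 to 2.19 CPM in LK2-ctrl, 2.06 to 2.18 in LK2-maspin, 1.75 to 2.18 in LC-AI-ctrl and 1.73 to 2.34 in LC-AI-maspin libraries. TIE1, the partner of TEK, was 3.69 to 3.90 CPM in LK2-ctrl, 2.60 to 3.98 in LK2-maspin, 2.28 to 2.91 in LC-AI-ctrl and 2.79 to 3.33 in LC-AI-maspin libraries. All 3 overlapped between maspin and control libraries of both lines.

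MERTK, the TAM receptor that takes part in the uptake of dying cells, was 2.91 to 3.89 CPM in LK2-ctrl, 3.13 to 4.43 in LK2-maspin, 9.48 to 10.9 in LC-AI-ctrl and 8.43 to 11.5 in LC-AI-maspin libraries. MST1R, the receptor for macrophage-stimulating protein, was 1.24 to 2.16 CPM in LK2-ctrl, 1.85 to 3.28 in LK2-maspin, 1.04 to 1.47 in LC-AI-ctrl and 0.858 to 1.51 in LC-AI-maspin libraries. MST1R overlapped between maspin and control libraries in both lines, and so did MERTK.

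NTRK2, the receptor for BDNF, was 3.28 to 3.56 CPM in LK2-ctrl, 3.80 to 4.68 in LK2-maspin, 1.02 to 1.16 in LC-AI-ctrl and 0.488 to 1.82 in LC-AI-maspin libraries. The LK-2 groups did not overlap, with maspin libraries higher (log2 fold change 0.31, SE 0.14, adjusted p = 0.792), and the RERF-LC-AI groups did. NTRK3, the receptor for NT-3, was 5.19 to 5.66 CPM in LK2-ctrl, 5.07 to 5.55 in LK2-maspin, 2.60 to 3.74 in LC-AI-ctrl and 3.30 to 4.41 in LC-AI-maspin libraries. ROR2, which also binds WNT5A, was 6.36 to 8.11 CPM in LK2-ctrl, 5.22 to 7.11 in LK2-maspin, 0.865 to 1.48 in LC-AI-ctrl and 1.03 to 1.82 in LC-AI-maspin libraries. The maspin and control libraries of NTRK3 and of ROR2 overlapped in each line.

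The drug targets ALK and ROS1 were low in both lines. ALK was 0.276 to 0.566 CPM in LK2-ctrl, 0.379 to 0.415 in LK2-maspin, 0.192 to 0.437 in LC-AI-ctrl and 0.0414 to 0.339 in LC-AI-maspin libraries. ROS1, a receptor for NELL2, was 1.15 to 1.48 CPM in LK2-ctrl, 1.37 to 1.90 in LK2-maspin, 0.385 to 0.970 in LC-AI-ctrl and 0.496 to 1.1 in LC-AI-maspin libraries. MUSK, the receptor kinase of the neuromuscular junction, was 0.987 to 1.25 CPM in LK2-ctrl, 1.11 to 1.47 in LK2-maspin, 1.02 to 1.35 in LC-AI-ctrl and 0.646 to 1.32 in LC-AI-maspin libraries. INSRR, an alkali-sensing relative of the insulin receptor, had 2 to 19 counts in any library. None of these 4 passed the test in a line where it could be tested.

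Markers of other cell types were also tested in RERF-LC-AI cells by edgeR's quasi-likelihood test. Of 5 fibroblast markers tested 1 was called lower (20%) and of 6 endothelial markers 1 (16.7%), beside 6.53% of all genes. Of 5 leukocyte, 1 mast cell and 3 melanocyte markers tested 0 were called, beside 10.5% of all genes. At an unadjusted p under 0.05 there was 1 leukocyte marker, PTPRC, and no mast cell or melanocyte marker. The likelihood ratio test and the replicate block called PTPRC alone of these 3 lists, and DESeq2 gave PTPRC no adjusted p and called 0 others. The summed level of 6 fibroblast markers was 68.5 to 94.8 CPM in LC-AI-ctrl and 58.3 to 66.9 CPM in LC-AI-maspin libraries. COL1A2, a collagen chain, fell from 31.9 to 16.4 CPM on average (log2 fold change -0.96, SE 0.11, adjusted p = 2.64e-07), while THY1 was 39.4 and 37.5 CPM and COL1A1 6.32 and 6.92 CPM. COL3A1, DCN and LUM were each under 1 CPM on average in both groups.

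The summed level of 6 endothelial markers was 21.5 to 25.7 CPM in LC-AI-ctrl and 16.8 to 19.2 CPM in LC-AI-maspin libraries. Most of this sum was EGFL7, which was called lower and averaged 18.8 and 13.2 CPM. PECAM1 went the other way, at 1.66 and 2.37 CPM on average, and was called with the replicate block but not without it. ESAM averaged 1.53 and 1.24 CPM, and CDH5, VWF and CLDN5 were under 1 CPM. Of 4 mast cell markers, 0 reached 1 CPM in LC-AI-ctrl and 1 (MS4A2) in LC-AI-maspin cells, with TPSAB1, CPA3 and HDC under it in both. Of the 5 epithelial markers, 3 fell (60%, beside 6.53% of all genes), among them KRT8 from 1448 ± 52.6 to 1039.7 ± 45.1 CPM. The part of these markers in the changes of KIT, PDGFRB and DDR2 was not tested, and in bulk RNA fewer cells with a transcript cannot be told apart from less of it per cell.

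Several members are neighbours in the genome. PDGFRA, KIT and KDR follow each other on chromosome 4, with 359 kb and 338 kb between them. KIT alone of these was called in RERF-LC-AI cells, and PDGFRA (log2 fold change -0.26, SE 0.43) and KDR, a VEGF receptor (-0.06, SE 0.32), did not pass the test at levels under 1 CPM. CSF1R and PDGFRB are 466 bases apart on chromosome 5. PDGFRB was called there and CSF1R was not (log2 fold change 0.32, SE 0.44, adjusted p = 0.760). These differences between neighbours were not tested. LTK and TYRO3 on chromosome 15 were both called lower.

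**Figure D3:**
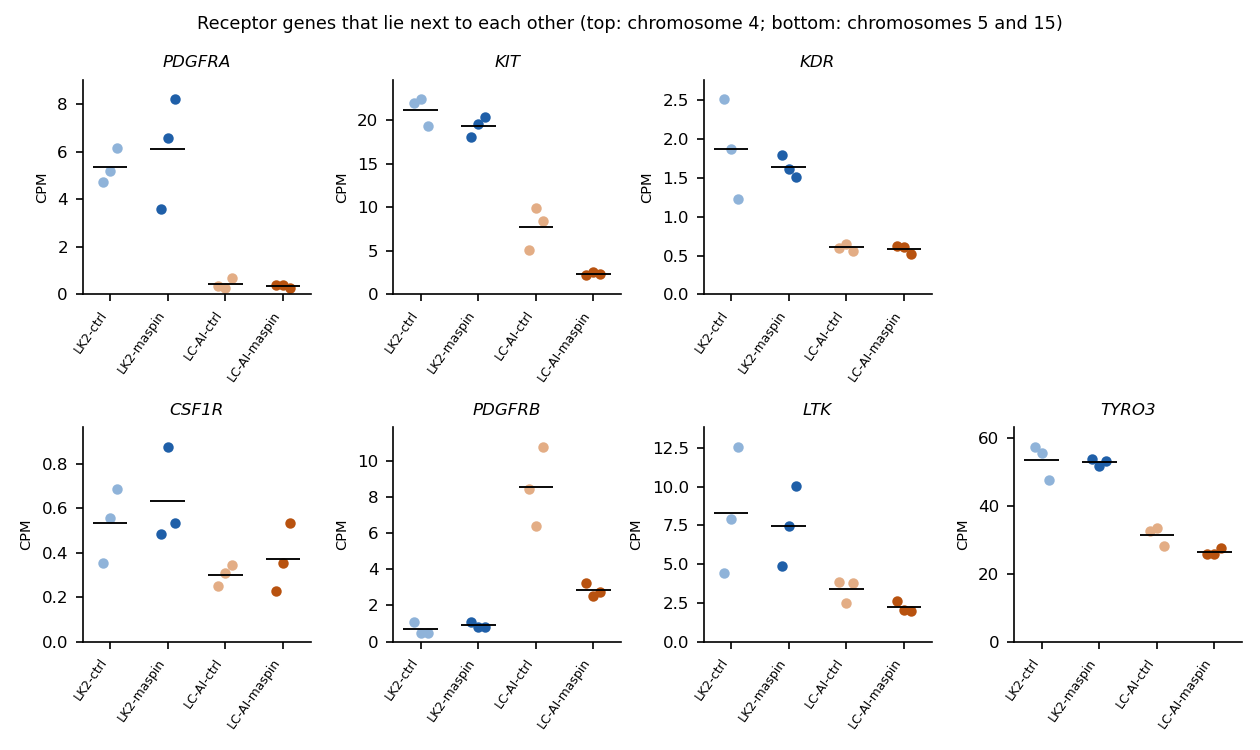
CPM (vertical axis, from 0) in each of the 12 libraries for receptor genes that are neighbours on chromosome 4 (PDGFRA, KIT and KDR, upper row), chromosome 5 (CSF1R and PDGFRB) and chromosome 15 (LTK and TYRO3, both lower row). Points are libraries and lines are group means. KIT and PDGFRB drop in LC-AI-maspin cells, while PDGFRA, KDR and CSF1R stay under 1 CPM in all RERF-LC-AI libraries.

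The 250 bases before the start of the canonical transcript are shown for the 4 members with the largest called changes in RERF-LC-AI cells, since 3 of them fell and 1 rose. DDR2 has 3 starts listed, of which only this 1 was read, and the others have 1 each. The KIT and DDR2 windows lie inside the gene spans given above, and the PDGFRB window overlaps its span. The sequences are RefSeq's for GRCh38.p14, 5′ to 3′ on the strand of the gene, and capitals mark GC boxes (GGGCGG on either strand) and CCAAT boxes (CCAAT on either strand).
KIT chr4:54657707-54657956 (+): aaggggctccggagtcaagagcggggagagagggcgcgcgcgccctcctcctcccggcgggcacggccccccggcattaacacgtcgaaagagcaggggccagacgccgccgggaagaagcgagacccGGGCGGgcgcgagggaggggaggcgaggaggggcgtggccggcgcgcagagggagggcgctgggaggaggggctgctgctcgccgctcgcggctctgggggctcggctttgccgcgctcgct
PDGFRB chr5:150155846-150156095 (-): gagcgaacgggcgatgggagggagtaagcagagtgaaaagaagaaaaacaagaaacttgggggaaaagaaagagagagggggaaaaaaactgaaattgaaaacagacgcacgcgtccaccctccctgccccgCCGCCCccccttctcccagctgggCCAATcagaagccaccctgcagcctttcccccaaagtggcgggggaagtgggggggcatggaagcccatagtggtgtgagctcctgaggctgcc
FGFR3 chr4:1793043-1793292 (+): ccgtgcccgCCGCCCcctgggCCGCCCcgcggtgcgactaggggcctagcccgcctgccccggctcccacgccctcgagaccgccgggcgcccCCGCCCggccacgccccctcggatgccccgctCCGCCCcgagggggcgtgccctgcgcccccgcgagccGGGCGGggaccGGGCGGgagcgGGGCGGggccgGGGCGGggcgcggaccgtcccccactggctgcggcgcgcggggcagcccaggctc
DDR2 chr1:162632214-162632463 (+): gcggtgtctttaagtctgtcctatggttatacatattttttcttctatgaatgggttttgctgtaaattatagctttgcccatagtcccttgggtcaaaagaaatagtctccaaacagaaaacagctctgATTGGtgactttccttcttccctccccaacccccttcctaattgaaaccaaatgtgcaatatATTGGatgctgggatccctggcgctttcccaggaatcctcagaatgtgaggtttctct

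These windows differed widely in composition. FGFR3 was 86.8% G or C with 40 CpG pairs and 8 GC boxes, and KIT was 76.4% with 34 CpG pairs and 1 GC box. PDGFRB was 58.4% with 9 CpG pairs, 1 GC box and 1 CCAAT box, and DDR2 was 42.4% with 2 CpG pairs, no GC box and 2 CCAAT boxes. Over the 39 members with an entry the median was 70% and 23 CpG pairs, against 58% and 11 over all 35116 windows of the table. Each member had 1 window, at the listed start nearest its canonical start, while the 35116 include every start listed for a gene. These sets are unlike, here and for the motifs below, and the shares are not a property shown for receptor genes. A GC box was found in 28 of the 39 (71.8%) and in 42.6% of all windows, and a CCAAT box in 16 (41.0%) and in 32.0%. The TATA box TATAAA was found in 1 member, FLT1 (2.56%, against 10.7% of all windows), and the AP-1 site TGANTCA in 2, PDGFRA and TYRO3 (5.13%, against 6.57%). The cAMP response element TGACGTCA was found in 2, FLT1 and EPHA2 (against 1.65%), and the E-box CACGTG in 1, FLT3 (against 6.34%). Both strands were searched for each motif. A match is a run of letters and shows no binding.

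Levels of different receptors were compared in the control cells as CPM per kilobase of the canonical transcript. In LK2-ctrl cells FGFR1 stood highest at 183 ± 9.89 (SD, n = 3), followed by PTK7 at 71.9 ± 2.94, RYK at 36.7 ± 0.613, EPHB4 at 34.8 ± 1.71 and EPHA4 at 25.2 ± 1.25 CPM per kilobase. RYK and EPHB4 differed by about their spread, and the other steps in this order were larger than theirs. FGFR1 alone held 43.3% of the summed per-length level of the 43 genes.

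In LC-AI-ctrl cells EPHA2 stood highest at 72.7 ± 1.22 CPM per kilobase and held 32.2% of the summed level. FGFR1 (32.8 ± 0.702), RYK (29.1 ± 0.497), MET (27.1 ± 1.49) and EPHB4 (20.4 ± 0.928) followed. RYK and MET could not be separated clearly by their spread. By plain CPM, 13 members were at 10 CPM or more in LK2-ctrl and 12 in LC-AI-ctrl cells, and 8 and 14 were under 1 CPM.

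**Figure D4:**
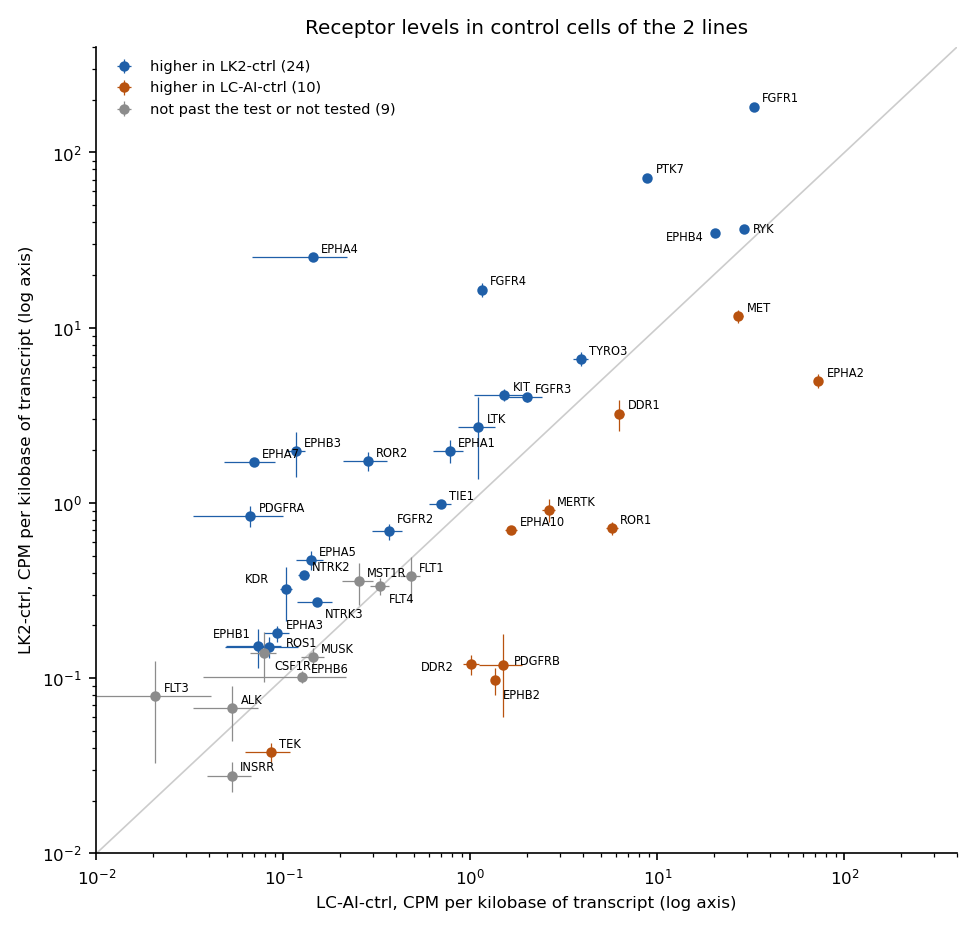
Mean CPM per kilobase of transcript in LC-AI-ctrl (horizontal, log axis) and LK2-ctrl cells (vertical, log axis) for the 43 receptors, with SD bars over 3 libraries and the line of equal levels in grey. Blue genes are higher in LK2-ctrl (24), orange genes higher in LC-AI-ctrl (10) and grey genes not past the test or not tested (9). EPHA4, FGFR4 and PTK7 lie far above the line and EPHA2 far below it.

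The control cells of the lines differed in most receptors, as in most genes. Of 41 members tested, 34 were called, 24 higher and 10 lower in LK2-ctrl than in LC-AI-ctrl cells, against 63.8% of all genes tested (32.1% higher and 31.6% lower). The median log2 difference over the members was 0.83, and over all genes 0.10. With upper-quartile factors or library size only, the median over all genes was 0.32, so that differences of this size depend on the scaling. The lines were grown in different media and their tables made with different SAMtools versions, and these cannot be told apart from the lines themselves.

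All 4 FGF receptors were higher in LK2-ctrl cells. FGFR1 was 993, 1026 and 1103 CPM there and 191, 187 and 183 CPM in LC-AI-ctrl libraries (log2 difference 2.48, SE 0.07, adjusted p = 2.16e-13), and with maspin it was 984, 1065 and 1082 CPM in LK2-maspin libraries, overlapping the controls. FGFR4 differed most, with a log2 difference of 3.85 (SE 0.10, adjusted p = 2.01e-13), or 14.4-fold. PTK7 was 8.19-fold higher in LK2-ctrl cells (adjusted p = 4.15e-14).

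Of the Eph receptors, EPHA4 was 157, 169 and 155 CPM in LK2-ctrl and 1.39, 0.923 and 0.431 CPM in LC-AI-ctrl libraries, a log2 difference of 7.45 (SE 0.19, adjusted p = 9.65e-14). EPHA7 (4.61, SE 0.19) and EPHB3 (4.09, SE 0.25) were also higher in LK2-ctrl cells, from levels under 1 CPM in LC-AI-ctrl. EPHA2 went the other way, at 17.6, 19.98 and 21.4 CPM in LK2-ctrl and 292, 287 and 282 CPM in LC-AI-ctrl libraries (log2 difference -3.86, SE 0.09, adjusted p = 2.24e-14). EPHB2 was 13.7-fold higher in LC-AI-ctrl cells (log2 difference -3.77, SE 0.15). In all, 5 of 7 EphA and 3 of 5 EphB receptors were higher in LK2-ctrl, and 2 and 1 were lower.

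PDGFRB, DDR2 and ROR1 were higher in LC-AI-ctrl cells, by 12.6-fold, 8.4-fold and 7.92-fold. Their paralogues PDGFRA (12.8-fold) and ROR2 (6.19-fold) were higher in LK2-ctrl cells, and DDR1 was 1.93-fold higher in LC-AI-ctrl cells. MET was 82.2, 84.4 and 72.1 CPM in LK2-ctrl and 193, 188 and 173 CPM in LC-AI-ctrl libraries (log2 difference -1.21, SE 0.07, adjusted p = 2.08e-09). KIT was higher in LK2-ctrl cells by 1.45 on the log2 scale (SE 0.18, adjusted p = 4.06e-06). TEK was called lower in LK2-ctrl cells (adjusted p = 0.0369) from 8 to 10 against 16 to 24 counts, and lost its call in most settings tried.

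Genes around the receptors were read from 4 lists of ligands, coreceptors, adaptors and negative regulators. In RERF-LC-AI cells 1 of 44 ligands tested rose (2.27%) and 6 fell (13.6%), with a median log2 fold change of -0.12, where 4.01% of all genes rose and 6.53% fell. PDGFB, a ligand of PDGFRB, fell from 9.31 ± 1.5 to 3.99 ± 0.308 CPM (log2 fold change -1.22, SE 0.13, adjusted p = 5.89e-08), CSF1, the ligand of CSF1R, fell from 51.9 ± 1.18 to 35.8 ± 1.61 CPM, and VEGFA rose from 91.0 ± 7.05 to 124 ± 1.0 CPM. Of 9 coreceptors 0 rose and 2 fell (22.2%, again beside 6.53% of all genes), NRP2, a coreceptor for VEGF proteins (log2 fold change -0.41, SE 0.09), and CD44, a hyaluronan receptor that can present growth factors (-0.17, SE 0.05). The call of CD44 was lost without LC-AI-ctrl replicate 2 and without LC-AI-maspin replicate 1 or 3.

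Of 26 adaptors tested in this line 1 rose (3.85%) and 4 fell (15.4%), beside the same 4.01% and 6.53%. PLCG2, a phospholipase, rose (log2 fold change 0.57, SE 0.14), and those that fell included IRS1, an insulin receptor substrate (-0.63, SE 0.06), and NCK2 (-0.22, SE 0.06), whose call was lost without LC-AI-ctrl replicate 2 and without LC-AI-maspin replicate 2 or 3. Of 24 negative regulators 7 rose (29.2%, beside 4.01% of all genes) and 1 fell (4.17%, beside 6.53%), with a median of 0.14. ERRFI1, a feedback inhibitor of receptor kinases, rose from 225 ± 10.7 to 279 ± 4.77 CPM, and SH2B3 from 76.2 ± 4.88 to 94.1 ± 2.64 CPM. CBL, a ubiquitin ligase for activated receptors, fell from 87.0 ± 1.14 to 72.8 ± 4.68 CPM. With the replicate block 12 ligands (2 higher), 4 coreceptors (2 higher), 11 adaptors (3 higher) and 10 negative regulators (8 higher) were called, against 16.2% of all genes.

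In LK-2 cells edgeR's quasi-likelihood test called 0 of 48 ligands, 0 of 9 coreceptors, 0 of 26 adaptors and 1 of 24 negative regulators, against 0.533% of all genes. With so small a share called among all genes, a count of 0 in a list of this size cannot be read as few. The counts that follow are for ligands, coreceptors and adaptors in that order. At an unadjusted p under 0.05 there were 7, 4 and 3, which are given without the share of all genes. The likelihood ratio test called 2, 0 and 0, with 314 genes called in all, and DESeq2 1, 0 and 0, with 280. With the replicate block 9 ligands (6 higher), 3 coreceptors (2 higher), 4 adaptors (2 higher) and 3 negative regulators (0 higher) were called, against 4.53% of all genes. Of 24 negative regulators SPRED1, an inhibitor of RAS-MAPK signaling, was the only 1 called without the block, falling from 104 ± 3.44 to 83.3 ± 2.81 CPM (log2 fold change -0.32, SE 0.06, adjusted p = 0.0388), and this call was lost when any 1 of 5 of the 6 libraries was left out.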

How the data were processed

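Total RNA was extracted with the RNeasy Mini Kit, and strand-specific poly(A) libraries were sequenced on an Illumina NovaSeq. Trimming (Trimmomatic 0.39) and mapping to GRCh38.p13 (BWA 0.7.17) were done by the authors, with SAMtools 1.12 (LK-2) or 1.10 (RERF-LC-AI). The deposited tables, 1 per line, hold counts of mapped reads per gene, and signal columns in which the authors scaled them by total or by TMM (edgeR 3.16.5), not used here. The counting tool and its strand setting are not given in the sources used here. Among counts from 1 to 9, 23.9 to 26.2% were odd, so most count both reads of a pair. Lines without a gene symbol held 0.292 to 0.416% of the counts and were left out.

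Genes were tested with edgeR 4.0.16 (R 4.3.3; quasi-likelihood F test, TMM, default filter with minimum count 10 and total 15, Benjamini-Hochberg at 0.05 over all genes), in 1 fit per comparison. The interaction used all 12 libraries. SE is the log2 fold change over the square root of F. LK-2 libraries varied more between replicates (biological coefficient of variation 11.7%) than RERF-LC-AI libraries (6.43%). Library pairs of a group differed by a chi-square per degree of freedom of 4.70 to 26.5, so that none was an exact copy of another. This cannot tell whether they came from separate RNA or cultures. Gene positions and lengths are from GENCODE 44. Replicate numbers, whose meaning the labels do not give, were checked by correlating deviations of equally numbered maspin and ctrl libraries from their group means. Among genes with a mean log2 CPM over 3, all pairs were over 0.1 (0.744, 0.113 and 0.750 in LK-2, and 0.369, 0.390 and 0.203 in RERF-LC-AI), although the second LK2-ctrl library was closer to the first LK2-maspin library (0.180). Over all genes tested 2 of 3 and 0 of 3 were. The main test has no block, and the blocked value stands beside each call it changes. Values in every library are given for members called with maspin and for the 5 highest per length in each line's controls, with family examples chosen by smallest adjusted p and, per list, up to 2 genes in each direction. A few further values were chosen after they were seen. The members and lists were chosen with earlier results of these data known. Alternatives were DESeq2 1.42.0, edgeR's likelihood ratio test, upper-quartile or RLE factors, library size only, 2 other filters, a replicate block, 1 fit of all 12 libraries, and leaving out each library.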

Additional observations from a re-analysis of the deposited data

Results flagged for a closer look

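The change with maspin differed between the lines, by the interaction term of edgeR's quasi-likelihood test over all 12 libraries, for 3 receptors. SERPINB5 reached 46.4 CPM in LK2-maspin and 512 CPM in LC-AI-maspin cells. The paper reports maspin in nucleus and cytoplasm of the former and mainly in the cytoplasm of the latter. The level and place of maspin cannot be told apart from the line here. The log2 fold change in LK-2 minus that in RERF-LC-AI cells was 1.59 for KIT (SE 0.23, adjusted p = 6.24e-04), 2.04 for PDGFRB (SE 0.37, adjusted p = 0.00452) and 0.99 for FGFR3 (SE 0.18, adjusted p = 0.00510). All 3 were called in each of the 20 alternatives run, and with libraries left out in turn they lay between 1.37 and 1.85, between 1.84 and 2.52 and between 0.82 and 1.15.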

How the results depend on the processing

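KIT, PDGFRB, DDR2, FGFR3 and RYK were called in RERF-LC-AI cells in all 15 alternatives, EPHB2 and PTK7 in 14, FGFR4 in 12, ROR1 in 10 and TYRO3 and LTK in 9. With all 12 libraries in 1 fit, 6 members were called there (4 lower) of 1163 genes, with FGFR4, TYRO3, EPHB2, ROR1 and LTK lost, and 251 genes were called in LK-2 cells. LK-2 counts were 314 by the likelihood ratio test and 280 by DESeq2, and those of the interaction 884 and 981. With libraries left out in turn, the genes called ran from 50 to 199 in LK-2, from 1764 to 2594 in RERF-LC-AI cells and from 275 to 754 for the interaction. The lowest LK-2 counts came without LK2-ctrl replicate 2 (50), LK2-maspin replicate 2 (52) and LK2-maspin replicate 3 (82), the lowest RERF-LC-AI count without LC-AI-maspin replicate 3, and members lower in RERF-LC-AI cells ran from 5 to 6. For the interaction, 316 were called without LK2-ctrl replicate 2, 754 without LK2-ctrl replicate 3, 306 without LK2-maspin replicate 2, 282 without LC-AI-ctrl replicate 3 and 275 without LC-AI-maspin replicate 3. The cause was not tested.

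Uncalled values near 0 changed sign. In LK-2 cells FGFR1 was -0.00083 with upper-quartile factors and -0.0038 with at least 10 counts in every library. With libraries left out, log2 fold changes in LK-2 ran from -0.036 to 0.066 for FGFR1, -0.073 to 0.034 for TYRO3, -0.15 to 0.091 for FGFR4, -0.47 to 0.28 for LTK and -0.010 to 0.078 for MET. EPHA4 ran from -0.59 to 0.22 in RERF-LC-AI cells, and interactions from -0.33 to 0.43 for EPHA4, -0.12 to 0.0012 for FGFR1 and -0.016 to 0.14 for ROR1.

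With the replicate block, 1190 genes were called in LK-2, 4081 in RERF-LC-AI cells and 2273 for the interaction. In LK-2 cells 6 members were then called, 3 higher (FGFR3, EPHA1 and EPHB3) and 3 lower (EPHA4, EPHA5 and PTK7). In RERF-LC-AI cells 14 were, with EPHA2, EPHB4 and FLT1 added, and for the interaction 6, of which 2 lower (FGFR4 and RYK). No member's call with maspin was lost with the block. Whether the numbers pair the libraries depended on the genes used, since over all genes tested the correlations of equal numbers were 0.154, 0.0144 and 0.164 in LK-2 and 0.0437, 0.0533 and 0.00167 in RERF-LC-AI cells. Counts of a few reads for FLT3, TEK and INSRR limit what could be detected.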
